A study of Mus musculus with 6 samples.

Results

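Hmga2 was 1 of 8078 entries in a table of gene expression in horizontal basal cells, the reserve stem cells of the mouse olfactory epithelium. It was picked by its symbol, with its 6 values already known, so its levels are given as a description and no test of them is reported. All animals were B6 mice aged 12 weeks that carried KRT5-CreER and Ai9 fl(Stop)TdTomato. Tamoxifen, given 2 weeks before sorting, lets the Cre act in cells with an active keratin 5 promoter, and these cells and their progeny then keep the red TdTomato protein. The 3 uninjured libraries (Nml_HBC) came from undisturbed epithelium. The 3 injured libraries (18HPL_HBC) came from epithelium taken 18 h after mice breathed methyl bromide at 180 ppm for 8 h, a gas that destroys most olfactory neurons and supporting cells. Each library pooled sorted TdTomato-positive cells from more than 1 animal, and no label says whether pools were independent beyond that.

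Hmga2 encodes a small protein that binds AT-rich DNA in the minor groove through AT-hook motifs and bends it, so that other factors can assemble there. It is abundant in embryonic and many stem cells, falls silent in most adult tissues, and is known for promoting growth. The let-7 family of microRNAs, which accumulate as cells mature, represses the Hmga2 mRNA through sites in its 3′ untranslated region (UTR), and the RNA-binding proteins Lin28a and Lin28b block the making of let-7.

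The pairing between let-7 and Hmga2 is shown here because the let-7 targets are examined as a group further on. In the RefSeq table for GRCm38.p6, 11 mature mouse microRNAs shared the seed of let-7a, bases 2 to 8. Of these, 3 that differ outside the seed are given 5′ to 3′, with the seed in capitals.
mmu-let-7a-5p: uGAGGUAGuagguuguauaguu
mmu-let-7d-5p: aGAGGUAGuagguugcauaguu
mmu-miR-98-5p: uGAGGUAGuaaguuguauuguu
The complement of that seed, CTACCTC, was searched on the mRNA strand of 3′ UTRs in GENCODE M21 (also GRCm38). The Hmga2 transcript with the longest 3′ UTR has one of 3014 bases with 4 matches, given 5′ to 3′ in the order in which they follow the stop codon, with the match in capitals.
Hmga2 site 1: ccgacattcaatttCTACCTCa
Hmga2 site 2: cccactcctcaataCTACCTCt
Hmga2 site 3: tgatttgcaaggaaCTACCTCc
Hmga2 site 4: atcaaaacacactaCTACCTCt
The matches begin at bases 58, 1295, 1733 and 2591 of the 3′ UTR, and 1 of them, the first, is followed by an A. Of 20981 genes with a 3′ UTR, 9.02% held at least 1 match and 11, Hmga2 among them, held 4 or more. Among 2245 genes whose 3′ UTR was within 20% of the Hmga2 length, 15.5% held a match and 0.223% held 3 or more. A match is a stretch of letters, and binding was not measured. The libraries were made from polyA RNA, so mature microRNAs were not measured either.

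Hmga2 was low in the uninjured libraries and higher in each of the injured ones. It was at 3.44, 2.97 and 2.07 FPKM in uninjured replicates 1, 2 and 3. In injured replicates 1, 2 and 3 it reached 21.7, 8.99 and 46.0 FPKM. FPKM are fragments of RNA scaled to transcript length and library size, which allows levels of different genes to be compared. The groups did not overlap, and the lowest injured library was 2.61 times the highest uninjured one. The mean was 2.83 ± 0.699 FPKM without injury and 25.6 ± 18.8 FPKM after it (SD, n = 3 each), a ratio of 9.04. The mean difference on the log2(FPKM + 1) scale, used for all differences below, was 2.54. That scale understates changes of low genes, and with a pseudocount of 0.1 the difference was 2.87.

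**Figure D1:**
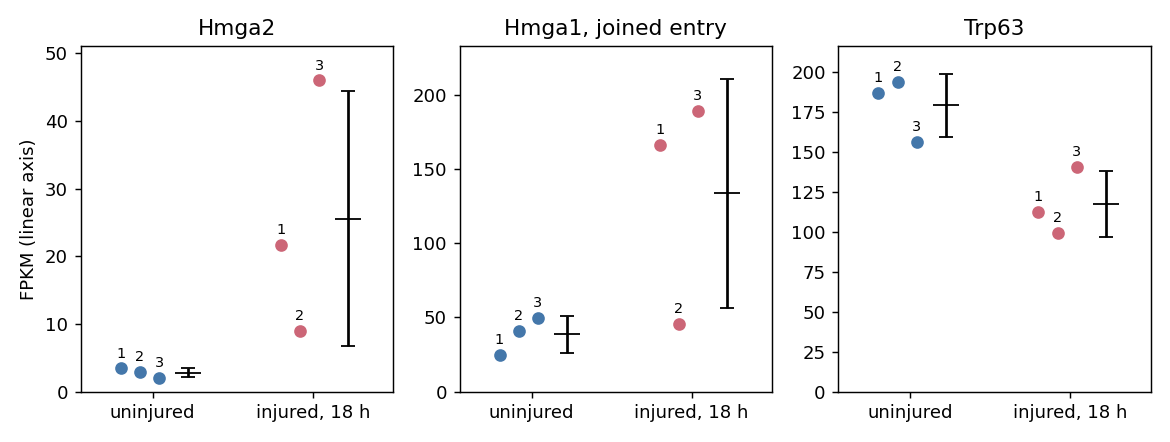
FPKM of Hmga2, of the joined Hmga1 entry and of Trp63 in the 3 uninjured (blue) and 3 injured (red) libraries, each point numbered by replicate, on linear axes from 0; black marks are means and bars SD over n = 3. Hmga2 in the injured libraries lies at 8.99 to 46.0 FPKM, above all uninjured ones, Hmga1 overlaps because of injured replicate 2, and Trp63 lies lower after injury.

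The 3 uninjured libraries were within 1.67-fold of each other, with an SD of 0.27 on the log2 scale, close to the median SD of all 7987 genes tested (0.25). The injured libraries spanned 5.11-fold. Their log2 SD of 1.12 exceeded that of 90.4% of genes, whose median was 0.46. From low to high the order was uninjured 3, 2 and 1 and then injured 2, 1 and 3, and each step between injured libraries was larger than the whole uninjured range of 1.67-fold. Without injured replicate 2 the injured mean was 33.9 FPKM over 2 libraries and the log2 difference was 3.11.

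Ranks within a library do not depend on scaling between libraries. Hmga2 exceeded 21.3%, 17.2% and 10.6% of all entries in uninjured replicates 1 to 3. It exceeded 78.5%, 52.9% and 91.2% of entries in injured replicates 1 to 3. It thus went from the bottom part of the table to above its median in each injured library. Among entries with a mean of at least 5 FPKM, it exceeded only 36.8% in injured replicate 2. Of the 7987 genes that averaged 1 FPKM or more, 6875 had a higher uninjured mean than Hmga2 and 1351 had a higher injured mean. Only 23 genes had a larger positive log2 difference. Among 2461 genes whose uninjured mean was within 2-fold of that of Hmga2, 9 did.

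**Figure D2:**
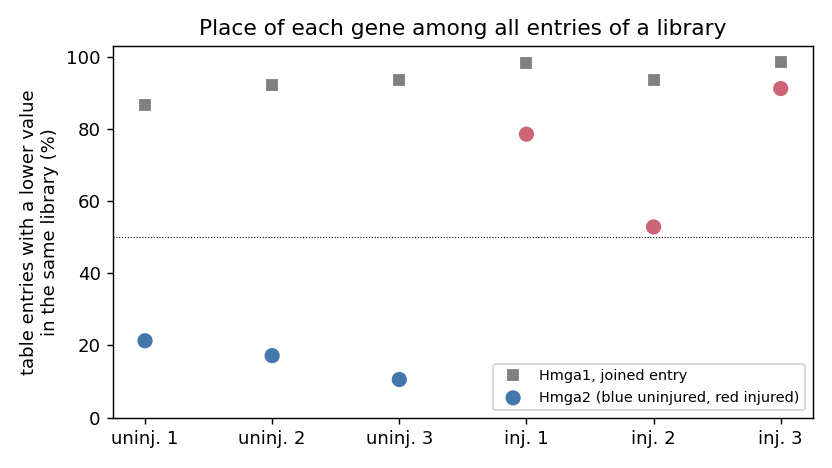
Share of all table entries with a lower value in the same library (%), for Hmga2 (circles, blue uninjured and red injured) and the joined Hmga1 entry (grey squares) in each of the 6 libraries; the dotted line marks the median entry. Hmga2 lies at 10.6% to 21.3% in uninjured and at 52.9% to 91.2% in injured libraries, while Hmga1 lies at 86.6% or higher throughout.

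Several features of the libraries bear on these values. Xist, which silences an X chromosome in female cells, stood at 27.4, 33.8 and 27.0 FPKM in uninjured and at 0.0645, 0.346 and 0.561 FPKM in injured replicates 1 to 3. The Y-linked gene Eif2s3y was at 18.8, 2.73 and 2.55 FPKM in uninjured replicates and at 23.0, 29.3 and 21.1 FPKM in injured ones. The sex of the animals was not stated, and injury and sex cannot be told apart in any comparison here. Injured replicate 2 stood apart: its log2 values correlated with those of the other injured libraries at r of 0.73 and 0.75 across genes, against 0.85 between those 2 libraries. Summed markers of globose basal cells and neuronal precursors (10 of 11 with an entry) were at 427 FPKM in it and at 39.4 to 64.5 FPKM elsewhere. The summed FPKM of all entries ranged from 164265 to 231755 per library.

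All 11 listed horizontal basal cell markers had an entry, at a sum of 1124 to 1841 FPKM in uninjured and 730 to 1657 FPKM in injured libraries. Krt14 is counted through an entry joined with other keratins, at 507 to 537 FPKM in uninjured libraries. The highest sum holds Perp at 869 FPKM in uninjured replicate 2, against 141 and 166 FPKM in uninjured replicates 1 and 3. Trp63, the transcription factor that holds these cells dormant, was at 187, 194 and 157 FPKM in uninjured and at 112, 99.5 and 140 FPKM in injured replicates 1 to 3. Per 100 FPKM of Trp63 there were 1.84, 1.54 and 1.32 FPKM of Hmga2 in uninjured replicates. The injured replicates had 19.3, 9.04 and 32.7, so the groups lay further apart than in FPKM alone. In pooled cells, more cells with Hmga2 and more Hmga2 RNA per cell cannot be told apart.

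Markers of other cells that a sort could hold moved in several ways. Mature olfactory neuron markers (9 of 12 with an entry) summed to 470 to 780 FPKM in uninjured and to 161, 506 and 139 FPKM in injured replicates 1 to 3. Supporting (sustentacular) cell markers, 5 of 10, summed to 235 to 254 and to 133 to 165 FPKM. Respiratory and gland cell markers, 5 of 10, summed to 3156 to 5041 and to 1234 to 2418 FPKM. Most of that was Plunc, at 4245, 4978 and 3023 FPKM in uninjured and at 2217, 1182 and 2290 FPKM in injured replicates. Lcn11 was also lower without overlap. Foxj1, Dynlrb2 and Ltf overlapped, and Ltf had a positive log2 difference (0.79). Wound keratinocyte genes, 8 of 15, summed to 552 to 573 FPKM without injury and to 1117, 409 and 1028 FPKM in injured replicates. Most of that was 1 entry that joins several keratins and also counts among the horizontal basal cell markers. The other 7 entries summed to 23.0, 51.9 and 44.2 FPKM in uninjured and to 200, 53.8 and 175 FPKM in injured replicates, above all uninjured ones. Among them Sprr1a, a cornified envelope protein, was at 63.9, 21.8 and 57.7 FPKM after injury, against a mean of 6.03 ± 1.13 FPKM without it. Krtdap and Areg also lay above without overlap, which makes 3 of the 8 (37.5%, against 12.0% of all genes). Those 2 averaged 0.207 and 0.460 FPKM without injury and passed the filter of 1 FPKM only through the injured group. All other entries of the 8 overlapped, and Dmkn had a negative log2 difference (-0.48). Of 14 fibroblast markers 7 had an entry, and their sum was 220 to 365 FPKM in uninjured and 138 to 250 FPKM in injured libraries. Dcn, a matrix proteoglycan of fibroblasts, was at 116, 162 and 145 FPKM in uninjured and at 27.5, 62.5 and 15.3 FPKM in injured replicates. The collagen gene Col1a2 reached 46.5 FPKM in injured replicate 1 but 7.25 and 7.63 FPKM in the other injured libraries, against 4.95, 31.6 and 6.76 FPKM without injury. Thy1, a surface protein of fibroblasts and other cells, was at 0.438, 0.443 and 1.07 FPKM in uninjured and at 5.08, 0.757 and 4.24 FPKM in injured replicates. Like Hmga2 it was lowest among injured libraries in replicate 2 (r with Hmga2 0.86). Without that replicate limma called Thy1 higher (adjusted p = 0.0495) and Dcn and Fbln2 lower (limma adjusted p = 0.0112 and 0.0385). That is 1 marker higher and 2 lower of 7, where 3.43% of all genes were called higher and 1.14% lower. Thy1, at 0.650 FPKM on average without injury, passed the filter of 1 FPKM only through the injured group and could only be higher. Of the 7 fibroblast markers 4 had a positive and 3 a negative difference. Leukocyte markers (8 of 14 with an entry) summed to 924 FPKM in injured replicate 1, to 119 and 241 FPKM in injured replicates 2 and 3, and to 207 to 324 FPKM without injury. Markers of endothelium (9 listed) were not analysed here, and 1 of 7 glial markers had an entry, Erbb3, at 2.37 to 11.6 FPKM. The part of other cells in the Hmga2 values was not tested.

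Across all 7987 genes, limma with Benjamini-Hochberg adjustment called 0% higher and 0.0125% lower at an adjusted p of 0.05, the latter being Xist alone. Before adjustment 571 genes were higher and 323 lower at p of 0.05, and plain limma, with neither trend nor robust fitting, called 3 and 3. Counts of groups that do not overlap are therefore given for the gene lists below, beside the share of all genes for which all injured libraries lay above (12.0%) or below (6.75%) all uninjured ones. The median log2 difference of all genes was 0.16. Upper-quartile scaling brought it to -0.01 and the counts from 958 above and 539 below to 581 and 897.

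Among relatives of Hmga2 in the high mobility group families, the nearest, Hmga1, was also higher in injured libraries, except in replicate 2. Hmga1 encodes the other AT-hook protein of the family and is joined with another gene in 1 entry, so the level of Hmga1 alone is uncertain. That entry was at 25.0, 41.2 and 49.7 FPKM in uninjured and at 166, 45.7 and 189 FPKM in injured replicates. Its log2 difference was 1.58 (SE 0.54, limma adjusted p = 0.365), and 2.22 without injured replicate 2 (limma adjusted p = 0.0220). Hmga2 amounted to 0.138, 0.0722 and 0.0416 of it in uninjured and to 0.131, 0.197 and 0.243 of it in injured replicates. The ratios of the groups overlapped. In injured replicate 2, Hmga2 was above its uninjured range while Hmga1 lay within its own.

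The wider list held 15 entries tested, for 16 of 18 genes of the HMGA, HMG-box and HMGN families. None passed, 3 lay above without overlap and 1 below (20% and 6.67%, against 12.0% and 6.75% of all genes). The median difference was 0.08, which turned to -0.08 after upper-quartile scaling. Hmgb3, an HMG-box protein of progenitor cells, was at 9.31 ± 1.51 FPKM without injury and at 17.9 ± 2.47 FPKM with it (log2 difference 0.87, limma adjusted p = 0.288). Hmgn2 and Ssrp1 were the others above, but the Hmgn2 groups overlapped after each of 3 other scalings. Under those the list had 2 to 4 members above, the Hmga1 entry among the 4 when Mir703 was left out. Ssrp1, a subunit of the histone chaperone FACT, was at 16.4 ± 3.50 and 24.4 ± 4.39 FPKM. Hmgn5, a nucleosome-binding protein, was the member that lay below, at 13.2 ± 2.90 and 5.72 ± 3.37 FPKM. The abundant chromatin proteins Hmgb1 and Hmgn1 overlapped between groups, with Hmgb1 at 14.8 ± 1.57 and 12.3 ± 4.72 FPKM and Hmgn1 at 123 ± 20.9 and 165 ± 37.9 FPKM. Hmgb2 was at 17.1 FPKM in uninjured replicate 2 and at 3.88 to 12.2 FPKM in the other 5 libraries.

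Of 39 genes of chromatin architecture, such as cohesin, condensin, lamins and histone variants, 32 were tested. None passed, while 7 lay above without overlap and 0 below, which is 21.9% above against 12.0% of all genes. Of the 7, Ncapg, passed the filter only through the injured group and could only be higher, and without it 6 of 31 lay above (19.4%). The median difference was 0.33, with 28 of 32 positive, against 62.9% of all genes. After upper-quartile scaling the median was 0.17, with 22 positive, 6 above and 0 below. Hells, a chromatin remodeller needed for DNA methylation, was at 2.76, 2.12 and 1.12 FPKM in uninjured and at 7.48, 5.08 and 11.1 FPKM in injured replicates. Its log2 difference of 1.55 (SE 0.39) did not pass (limma adjusted p = 0.193), and did without injured replicate 2 (limma adjusted p = 0.0434). The condensin subunit Smc2 was at 2.52 ± 0.450 and 6.68 ± 1.34 FPKM. Ncapg, another condensin subunit, was listed at 0.001, the lowest value there is, in all uninjured libraries and at 0.732, 3.68 and 1.86 FPKM in injured ones. The histone variant macroH2A1 (H2afy) was at 34.4 ± 12.7 and 79.9 ± 43.7 FPKM, with overlap. The insulator protein Ctcf was at 17.8 ± 0.982 and 19.2 ± 2.27 FPKM, and the nuclear scaffold protein Hnrnpu at 87.4 ± 20.5 and 97.3 ± 16.4 FPKM, both with overlap.

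**Figure D3:**
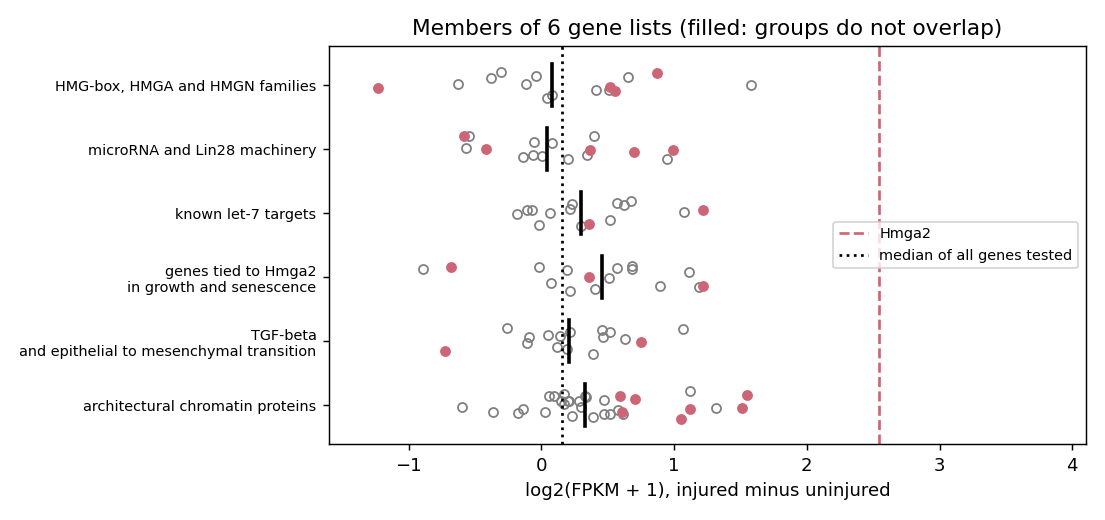
Log2(FPKM + 1), injured minus uninjured, of each tested member of the 6 gene lists (rows); filled points are genes whose groups do not overlap, short black lines list medians, the dotted line the median of all genes (0.16) and the dashed line Hmga2 (2.54). No member of any list reaches the Hmga2 difference, and the nearest is the joined Hmga1 entry at 1.58; with a pseudocount of 0.1, Ncapg (4.18) exceeds Hmga2 (2.87).

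On the side of its repressor, the genes that make and use microRNAs did not shift together. Of 22 listed, 16 were tested, none passed, and 3 lay above without overlap and 2 below (18.75% and 12.5%, against 12.0% and 6.75% of all genes). The median was 0.04, or -0.10 after upper-quartile scaling. Xpo5, which exports microRNA precursors from the nucleus, was at 7.38 ± 0.594 and 12.6 ± 0.964 FPKM. Ago2 (Eif2c2), the slicing Argonaute, was at 2.55, 2.13 and 3.46 FPKM in uninjured and at 5.53, 4.66 and 9.47 FPKM in injured replicates (log2 difference 0.99, limma adjusted p = 0.369). Tnrc6a, a partner of Argonaute in silencing, was at 14.5 ± 1.93 and 9.57 ± 2.87 FPKM, and the decapping activator Ddx6 at 24.7 ± 0.779 and 18.3 ± 1.53 FPKM, both lower without overlap. Dicer1, which cuts the precursors, was at 9.19 ± 1.86 and 8.49 ± 2.99 FPKM. Khsrp, which aids let-7 maturation, was at 16.9 ± 5.78 and 36.1 ± 21.5 FPKM, with overlap. Lin28a and Lin28b were not analysed here.

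Of 24 established let-7 targets listed other than Hmga2, 15 were tested and none passed. Above without overlap lay 2 (13.3%, against 12.0% of all genes), and 0 lay below (against 6.75%). Their median was 0.30, against 0.16 for all genes. After upper-quartile scaling it was 0.14, against -0.01 for all genes, and 0 were left without overlap. Igf2bp2, an mRNA-binding protein whose gene Hmga2 is known to activate, was at 10.1, 9.38 and 9.81 FPKM in uninjured and at 11.9, 12.3 and 14.4 FPKM in injured replicates. Its log2 difference was 0.36 (limma adjusted p = 0.575), and its groups overlapped after each of 3 other scalings. The cyclins Ccnd1 and Ccnd2 were at 30.9 ± 7.45 and 71.7 ± 35.1 FPKM and at 38.6 ± 6.22 and 35.3 ± 13.6 FPKM, with overlap. Igf2bp1 and Igf2bp3 were not analysed here. Without injured replicate 2, 2 of the 15 were called higher (limma), Ccnd1 and Myc, where 3.43% of all genes were called higher and 1.14% lower.

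Grouped by seed matches instead of reputation, 7734 tested genes could be matched to a 3′ UTR. Those without a match (7002 genes) had a median log2 difference of 0.16, and 12.1% of them lay above and 6.70% below without overlap. Those with 1 match (649) had a median of 0.16, with 11.7% above and 6.01% below. Those with 2 (75) had a median of 0.21, with 12.0% above and 10.7% below. Without injured replicate 2 the medians for 0, 1 and 2 matches were 0.18, 0.17 and 0.14. The 8 genes with 3 or more include Hmga2, and the other 7 had a median of 0.28, with 2 above without overlap, Eif2c2 and Diap2, and 0 below. Diap2, a formin that nucleates actin filaments, was at 4.07 ± 0.619 and 5.69 ± 0.421 FPKM. Nr6a1, a nuclear receptor of early development with 8 matches, was at 3.23 ± 2.40 and 5.30 ± 2.22 FPKM, with overlap. The 3′ UTRs of genes with more matches were longer, with medians of 1094, 2269 and 3601 bases for 0, 1 and 2 matches. Mir98, the 1 gene of the let-7 seed family with an entry, read 7094 FPKM in injured replicate 3, 6.53 FPKM in uninjured replicate 1 and 0.001 in the other 4 libraries, for a gene far shorter than a usual mRNA.

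**Figure D4:**
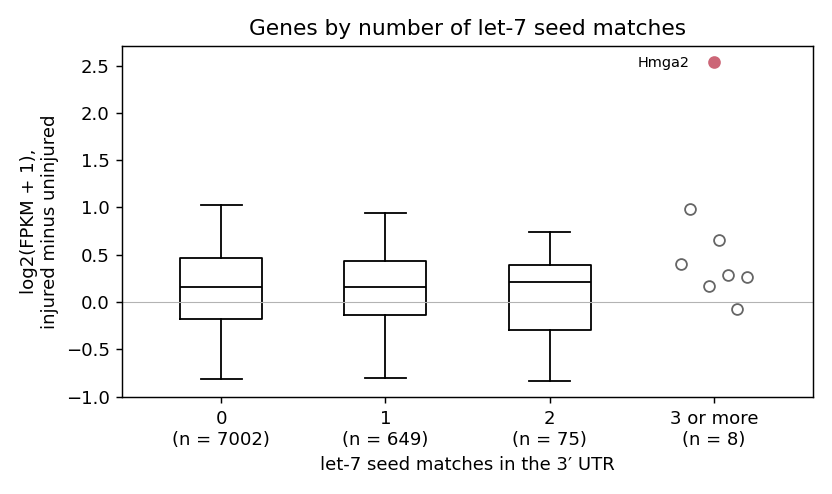
Log2(FPKM + 1), injured minus uninjured, of tested genes by the number of let-7 seed matches in their 3′ UTR; boxes give quartiles and median, whiskers the 5th and 95th percentiles, and genes with 3 or more matches are drawn singly. The medians for 0, 1 and 2 matches are 0.16, 0.16 and 0.21, and Hmga2 at 2.54 lies above the other 7 genes with 3 or more.

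Genes that have been tied to Hmga2 in growth and senescence had a median difference of 0.46 over 16 of 21 genes, and 0.28 after upper-quartile scaling. None passed, 2 lay above without overlap (Igf2bp2, of both lists, and Apex1) and 1 below. These are 12.5% and 6.25% of the list, against 12.0% and 6.75% of all genes. Apex1, a DNA repair endonuclease that binds HMGA proteins, was at 11.9, 11.7 and 15.4 FPKM in uninjured and at 33.4, 21.7 and 42.6 FPKM in injured replicates. Its log2 difference of 1.22 (SE 0.30) did not pass (limma adjusted p = 0.191), and did without injured replicate 2 (limma adjusted p = 0.0279). The growth factor gene Igf2 was lower without overlap, at 4.60 ± 0.857 and 2.51 ± 0.713 FPKM. Ccna2, the S and G2 phase cyclin that Hmga2 can derepress, averaged 3.43 ± 0.443 FPKM without injury, against 2.00, 8.32 and 3.62 FPKM in injured replicates. Junb, an AP-1 subunit, averaged 48.2 ± 2.07 FPKM without injury, against 26.5, 10.2 and 59.8 FPKM with it. The cell cycle inhibitor Cdkn1a averaged 16.4 ± 0.124 FPKM without injury, against 22.1, 15.9 and 136 FPKM with it. The highest injured library was replicate 3 for Junb and Cdkn1a, as for Hmga2, and replicate 2 for Ccna2. Cdkn2a and Plag1 were not analysed here.

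Hmga2 is also known as a mediator of TGF-beta in the passage from epithelial to mesenchymal state. Of 21 genes of that passage 16 were tested, none passed, and 1 lay above without overlap and 1 below (6.25% each, against 12.0% and 6.75% of all genes). The median was 0.20 (0.03 after upper-quartile scaling). Snai2 (Slug), a repressor of epithelial genes that basal epithelial cells express, was at 54.5, 58.6 and 49.0 FPKM in uninjured and at 43.5, 29.0 and 26.1 FPKM in injured replicates. Its difference of -0.73 (SE 0.28) did not pass (limma adjusted p = 0.392). Zeb1, another such repressor, was the gene above without overlap, at 0.696, 0.532 and 0.358 FPKM in uninjured and at 1.34, 3.18 and 0.703 FPKM in injured replicates. It passed the filter only through the injured group, and its groups overlapped after upper-quartile scaling and without Mir703, which left 0 above. E-cadherin (Cdh1) averaged 54.8 ± 2.38 FPKM without injury, against 96.2, 35.5 and 125 FPKM in injured replicates, with the same order among injured libraries as Hmga2 and with overlap. Snai1 was not analysed here.

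Genes with the pattern most like that of Hmga2 were found by Pearson r of log2(FPKM + 1) over the 6 libraries, which share preparation, scaling and the group difference itself. An r of at least 0.95 was reached by 127 of 7986 other genes (1.59%), and 124 of these lay above without overlap. An r of -0.95 or lower was reached by 30 (0.376%). The order of all 6 libraries was that of Hmga2 in 41 other genes. Of the 958 genes above without overlap, 276 (28.8%) had the Hmga2 order among injured libraries, replicate 2 lowest and replicate 3 highest. These numbers are a description, since a gene with a large group difference correlates with any other such gene.

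Of the 12 with the highest r, from 0.996 down to 0.986, 11 are described here, namely Rtn4, Serpinb2, Exoc4, Chek1, Elac2, Nup188, Ccnyl1, Cse1l, Tor1aip2, Etv6 and Slc39a6. Rtn4, which shapes tubules of the endoplasmic reticulum, was at 36.9, 30.9 and 26.2 FPKM in uninjured and at 76.9, 49.9 and 115 FPKM in injured replicates. Serpinb2, an inhibitor of urokinase, was at 0.0573 FPKM or at the lowest value of 0.001 in uninjured libraries and at 2.29, 0.981 and 3.83 FPKM in injured ones. Chek1, the checkpoint kinase of DNA replication, was at 1.27 ± 0.283 and 5.59 ± 3.06 FPKM. Cse1l and Nup188 serve transport through the nuclear pore, at 20.2 ± 0.957 and 35.6 ± 8.39 FPKM and at 3.79 ± 0.330 and 6.61 ± 1.90 FPKM. The zinc transporter gene Slc39a6 was at 8.37 ± 0.644 and 16.8 ± 4.73 FPKM. Their log2 differences ran from 0.54 (Etv6) to 1.63 (Serpinb2), below the 2.54 of Hmga2. That order holds with a pseudocount of 1, since Serpinb2 was near 0 without injury, and with 0.1 its difference was 4.21 against 2.87 for Hmga2. All 11 lay above without overlap, which Etv6 did not after quantile normalization. The choice by a high r with Hmga2 favours this. Serpinb2, at 0.0198 FPKM on average without injury, also passed the filter of 1 FPKM only through the injured group and could only be higher.

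The 4 genes with the lowest r were Atp6v1b1, Dcn, Pcp4l1 and Abca13, from -0.993 to -0.979. Atp6v1b1, a proton pump subunit, was at 12.7 ± 0.247 FPKM without injury and at 5.96 ± 1.74 FPKM with it. The values of Dcn are given above. Pcp4l1 was at 65.0 ± 10.4 and 21.9 ± 10.5 FPKM.

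**Figure D5:**
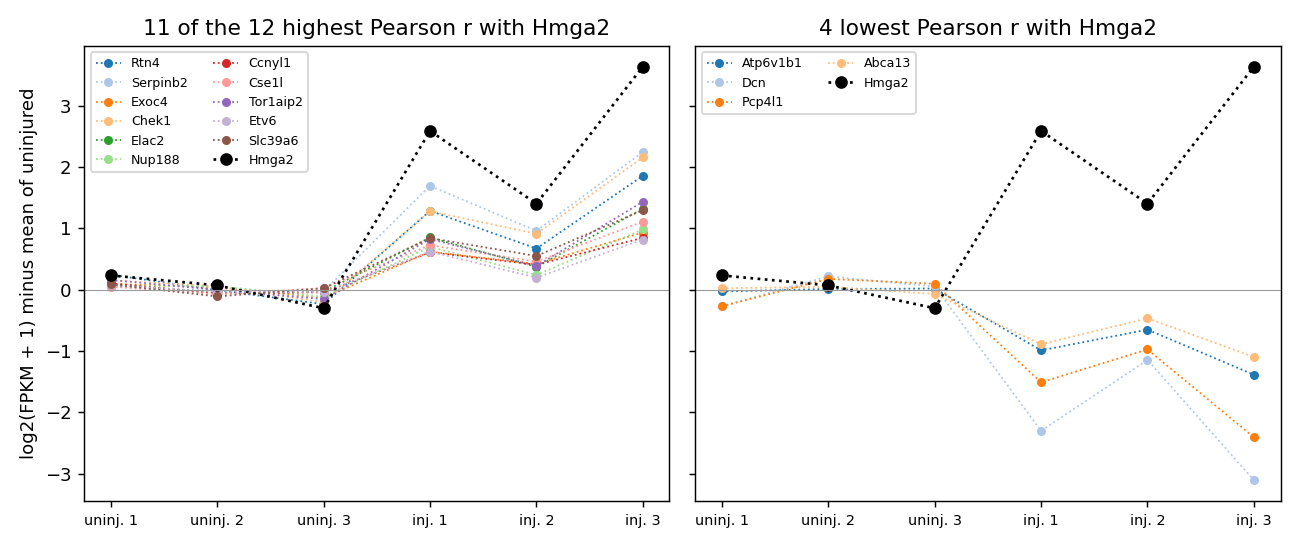
Log2(FPKM + 1) minus the uninjured mean in each of the 6 libraries for 11 of the 12 genes with the highest (left) and the 4 with the lowest (right) Pearson r with Hmga2 (black); dotted lines only join the points of a gene. The 11 share the low value in injured replicate 2 and the high one in replicate 3 with smaller differences than Hmga2 on this scale (with a pseudocount of 0.1 that of Serpinb2 is larger), and the 4 lie lower in injured libraries, least so in replicate 2.

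Of the 8 tested S phase markers, 5 lay above without overlap (62.5%, against 12.0% of all genes). Among the 5, Cdt1 averaged 0.983 FPKM without injury and 7.39 FPKM with it, so it passed the filter only through the injured group. Of the 8, 1, Mcm3, reached an r of 0.95 with Hmga2, as 1.59% of all other genes did. The helicase subunit Mcm3 was at 1.56, 1.64 and 1.67 FPKM in uninjured and at 12.7, 4.51 and 15.9 FPKM in injured replicates. The median r with Hmga2 was 0.89 for the S phase markers, 0.22 for the 9 mitotic markers and 0.23 for all genes. The mitotic markers summed to 20.3, 18.8 and 18.9 FPKM in uninjured and to 27.9, 63.3 and 23.3 FPKM in injured replicates. All injured sums lay above the uninjured ones, with the highest in injured replicate 2, the injured library with the least Hmga2. All 9 had a positive log2 difference, but only 2, Top2a and Cdk1, lay above without overlap (22.2%, against 12.0% of all genes). In injured replicate 3, Ube2c (4.01 FPKM) and Cenpf (0.866 FPKM) lay below all their uninjured values. Bub1, Ccnb1 and Aurka, at 0.770, 0.969 and 0.381 FPKM on average without injury, passed the filter of 1 FPKM only through the injured group.

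The chromosomal neighbours of Hmga2 did not separate the groups. On chromosome 10 in the RefSeq annotation of GRCm38.p6, which gives order only because the deposited values were made on another build, Llph and Tmbim4 precede Hmga2 and Msrb3 and Lemd3 follow it among protein-coding genes. Llph was at 21.3 ± 4.74 and 24.5 ± 1.53 FPKM, and Tmbim4 at 33.6 ± 11.9 and 25.3 ± 8.35 FPKM. Msrb3 was at 19.9 ± 1.00 and 20.4 ± 5.20 FPKM, and Lemd3 at 5.22 ± 1.69 and 5.97 ± 3.30 FPKM. The groups overlapped for all 4, with limma adjusted p from 0.684 to 0.998. Within Hmga2 lie genes of the other strand, and in GENCODE M21 the exons of 1700006J14Rik share 140 bases with those of Hmga2. Nextera XT libraries do not mark the strand, so reads from these bases cannot be told apart.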

How the data were processed

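PolyA RNA of 3 uninjured and 3 injured pools of sorted cells was sequenced after Nextera XT preparation, per the labels' protocols. The authors deposited 1 table of 8078 entries with 6 columns, read here as FPKM. No header states that unit, which was taken from the tools and the values. The submitters' processing notes name FastQC, TopHat, Cuffdiff and the build mm9, and their versions and settings are not given in the sources used here. Depth is unknown, so no counting error could be given. A total of 131 entries join several genes, and values of 0.001 are the lowest in the table.

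Values were put on the log2(FPKM + 1) scale. The 7987 genes that averaged 1 FPKM or more were compared with limma 3.58.1 in R 4.3.3 (trend and robust, two-sided, Benjamini-Hochberg adjustment, threshold 0.05), after testing on simulated data. A log2 difference is the injured minus the uninjured mean. The p-values measure only the spread between these pools. The keratinocyte sum without the joined entry and the lists without members that passed the filter only through the injured group were added after seeing the data. The alternatives were 3 scalings, 2 pseudocounts, 2 filters, other limma settings, a replicate block and leaving out each library. Figures were drawn with matplotlib 3.10.9.

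Hmga2 and the gene lists were chosen with earlier results of these data known. Named were a fixed set of relatives and partners, then of each list the members that passed, up to 3 with the largest difference without overlap and the 2 with the highest mean. The 12 genes most like Hmga2, the 4 most opposite and its neighbours were named too, and a few genes that this rule selects are not reported here. Cdkn1a, Cdh1 and Tnrc6a were named by the rule for lists, which itself uses the values. Further members (among them Diap2, Nr6a1 and the S phase and fibroblast markers) were chosen after their values were seen. Seed matches were counted in the longest 3′ UTR of each gene, up to 20000 bases.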

Additional observations from a re-analysis of the deposited data

How the results depend on the processing

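The Hmga2 difference kept its direction in all 12 alternatives, from 1.99 (without injured replicate 3) to 3.11 (without injured replicate 2), with 18 to 66 genes having a larger one. Genes called by limma numbered 1 as reported. They numbered 3 with upper-quartile scaling, 4 with quantile normalization, 2 with a pseudocount of 0.1, 6 without trend and robust steps and 134 with library quality weights. Leaving out 1 library gave 1 to 365 calls, the latter without injured replicate 2 (274 higher, 91 lower), and at most 5 without another. With the replicate number as a block there were 221 calls (134 higher, 87 lower) and the Hmga2 difference was 2.54. Same-numbered libraries did not deviate together (correlations -0.09, 0.07 and -0.08), so the numbers were not taken to pair them. The causes were not tested.

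Genes with an r of at least 0.95 with Hmga2 numbered 127 as reported, 58 with upper-quartile scaling, 58 with quantile normalization, 70 without Mir703 and 42 by Spearman rho. Which genes ranked highest changed more. Of the 12 highest, 7 were still among the 12 with upper-quartile scaling, 4 with quantile normalization, 6 without Mir703 and 0 by Spearman rho. Leaving out 1 library kept 1 to 7 of them, with 1 without injured replicate 2 and 1 without injured replicate 3. They numbered 179 to 467 without 1 library, where fewer points enter, with 467 without injured replicate 2, 249 without injured replicate 1, and 225 and 245 without uninjured replicates 1 and 3. The median uninjured percentile of Hmga2 was 17.2 among all entries and 1.99 among those with a mean of at least 5 FPKM, which removes low genes. The median injured percentile was 78.5 and 70.5, and that of injured replicate 2 was 52.9 and 36.8. The median of the high mobility group list, 0.080 in all libraries, was 0.079 to 0.41 without 1 library, the highest without uninjured replicate 2. That of chromatin architecture was 0.28 to 0.40 without 1 library, 0.17 with upper-quartile scaling, 0.17 with quantile normalization, 0.19 without Mir703 and 0.38 with a pseudocount of 0.1. In 59 of 66 alternatives the list medians moved by less than 1 SD, taken over the medians of the 3 injured libraries. That SD was 0.036 for chromatin architecture, where 6 alternatives moved, and 0.22 to 0.31 for the other lists. With so wide an SD a median could change sign and still count as unmoved, as for the high mobility group and microRNA lists after upper-quartile scaling. The 3 pools in each group, unknown depth and the match of sex with injury limit all comparisons.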

Other observations

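The 23 genes with a larger log2 difference than Hmga2 were looked at after their values were seen. In 12 of them the injured libraries all lay above, against 12.0% of all genes, but the choice by a large difference favours this. Of the 23, 6 were at the lowest value of 0.001 in all uninjured libraries. In 2 a single injured library held over 90% of the injured sum. Those 6, and also Il1rn, Fosl1 and Krtdap (0.431, 0.671 and 0.207 FPKM on average without injury), passed the filter of 1 FPKM only through the injured group. Timp1, an inhibitor of matrix metalloproteinases, averaged 2.13 ± 0.629 FPKM without injury, against 138, 9.72 and 224 FPKM in injured replicates. Il1rn, the antagonist of the interleukin-1 receptor, was at 0.221, 0.410 and 0.661 FPKM and at 43.1, 2.25 and 36.8 FPKM. Both had their lowest injured value in replicate 2, as Hmga2 did. Tpm2, a tropomyosin of actin filaments, was at 9.76, 6.63 and 13.1 FPKM and at 176, 32.9 and 158 FPKM. Msn (moesin), which ties actin to the membrane, was at 5.94, 6.85 and 8.13 FPKM and at 69.0, 18.0 and 95.9 FPKM. Fosl1, an AP-1 subunit, reached 25.3 and 43.9 FPKM in injured replicates 1 and 3 but 1.08 FPKM in replicate 2, inside its uninjured range of 0.001 to 1.10 FPKM, where Hmga2 was at 8.99 FPKM.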
